A study of Mus musculus with 6 samples.

Results

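The genes described here are those of classical MHC class I presentation and of the immunoproteasome in mouse macrophages exposed to Candida albicans. They are H2-K1, H2-D1, B2m, Tap1, Tap2, Tapbp, Psmb8, Psmb9, Psmb10 and Nlrc5, chosen by gene name, and all 10 were found among the 54532 genes of the table. According to the labels, the cells came from the peritoneal cavity of C57BL/6J mice that were either wild type (WT) or progranulin knock out (PGRN KO), and every library, of either genotype, was made after a 6-hour challenge with live C. albicans in culture at 1 fungal cell per macrophage. There were 3 WT libraries (replicates 1, 2 and 3) and 3 PGRN KO libraries (replicates 4, 5 and 6), and no unchallenged cells were analysed here, so each difference is one between genotypes under challenge. The study's text describes the sequenced cells as derived from bone marrow and gives another ratio of fungus to cells; both points are unsettled, and the labels were followed. It bought the PGRN KO mice from one supplier and the WT mice from another, so genotype and supplier cannot be told apart. Nothing in the labels says which libraries came from separate mice, and p-values therefore measure only the spread between these libraries.

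MHC class I molecules show fragments of a cell's own proteins, and in phagocytes also of what they have engulfed, to CD8 T cells. The fragments are cut by the proteasome, whose constitutive catalytic subunits Psmb5, Psmb6 and Psmb7 are replaced under interferon by Psmb8, Psmb9 and Psmb10 to form the immunoproteasome. The Tap1 and Tap2 transporter then carries the peptides into the endoplasmic reticulum, where tapasin, encoded by Tapbp, helps to load them onto a heavy chain such as H2-K1 or H2-D1 paired with the light chain B2m. Nlrc5 is a transactivator that acts at the promoters of many of these genes.

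The 6 libraries held 15996786 to 17551619 counted fragments. Grn, the targeted gene, was at 323 to 337 FPKM (fragment counts divided by gene model length and by a library size) in WT and at 0 to 0.0167 FPKM in PGRN KO. That library size was not the plain sum of counted fragments. It was 0.974, 0.925 and 1.03 times the sum in WT replicates 1, 2 and 3. In PGRN KO replicates 4, 5 and 6 it was 1.05, 1.09 and 1.00 times the sum. Of 8882 genes tested with limma on log2(FPKM + 1), 921 were higher in PGRN KO, which is 10.4%, and 1230 were lower, which is 13.8%, at a Benjamini-Hochberg adjusted p under 0.05. PGRN KO replicate 6 stood apart in a way related to gene length: over genes, its deviation from the mean of all libraries had a Spearman correlation of -0.47 with gene length, against 0.15 to 0.24 in the other 5 libraries. Values without that library, or with libraries corrected for GC content and gene length, are given beside some of the results, and the plot of the 10 genes under 3 fits shows both. The macrophage label was checked against 7 markers. Lyz2 was at 5657 to 8135 FPKM, Cd68 at 1103 to 1344 FPKM and Adgre1 at 162 to 195 FPKM. Itgam was at 41.3 to 50.6, Csf1r at 23.6 to 33.4, Fcgr1 at 4.24 to 9.95 and Mertk at 1.14 to 3.84 FPKM. Of 3 markers of large peritoneal macrophages, Gata6 was at 3.78 to 5.07 FPKM and Timd4 at 0 to 0.204 FPKM. Icam2 rose from 2.94 to 3.26 FPKM in WT to 4.49 to 5.43 FPKM in PGRN KO (limma adjusted p = 0.00914). The source of the cells was not tested. Of 5 neutrophil markers, Ly6g and Cxcr2 were listed at 0 in all 6 libraries, Retnlg and Camp were at 0 to 0.439 FPKM, and Csf3r was at 9.12 to 13.7 FPKM.

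Transcripts of the peptide transporter, of tapasin and of all 3 immunoproteasome subunits were significantly higher in PGRN KO macrophages. Among the 10 genes the difference was largest for Psmb9, at 2.83 times its WT mean, and for Tap2, at 2.21 times, whereas B2m was at 1.03 times its WT mean and did not pass the test. Of the 10 genes, 6 were called higher and 0 lower, where 10.4% and 13.8% of all genes tested were. The median log2 fold change was 0.71 over the 10 genes, against -0.03 over all genes tested. For 8 of the 10, all but B2m and Nlrc5, every PGRN KO library lay above every WT library, and 21.2% of all genes tested had that order. In such bulk samples a change in which cells were present and a change in transcripts per cell cannot be told apart.

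**Figure D1:**
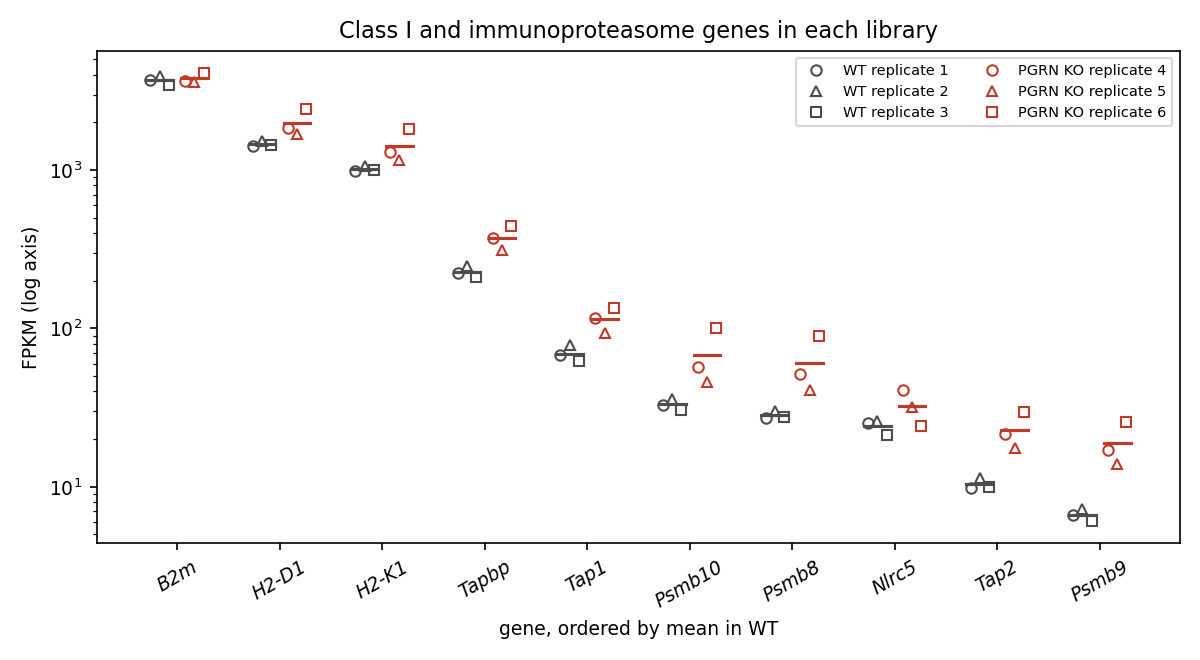
FPKM (log axis) of the 10 genes in each of the 6 libraries, ordered by their mean in WT; short lines are group means. The red points of PGRN KO lie above the grey points of WT for every gene except B2m and Nlrc5, and replicate 6 (red squares) is the highest PGRN KO library for 9 genes and the lowest for Nlrc5.

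The levels, all in FPKM and so per gene length, spanned a wide range. In WT the order was B2m at 3689 ± 245, H2-D1 at 1460 ± 51.0, H2-K1 at 1012 ± 42.0, Tapbp at 228 ± 19.0, Tap1 at 69.4 ± 8.45, Psmb10 at 33.2 ± 2.56, Psmb8 at 28.3 ± 1.45, Nlrc5 at 24.1 ± 2.59, Tap2 at 10.4 ± 0.835 and Psmb9 at 6.66 ± 0.574 (mean ± SD, n = 3). No neighbours in that order overlapped in their WT ranges. The mean levels followed the same order in PGRN KO, but there the ranges of H2-D1 and H2-K1 overlapped, as did those of each neighbouring pair from Tap1 down to Psmb9. The spread between PGRN KO libraries was wider than in WT. Replicate 6 was the highest PGRN KO library for 9 of the 10 genes and replicate 5 the lowest for 9. In WT, replicate 2 was the highest for all 10. FPKM summed over the whole table was likewise highest in replicate 2 among WT libraries. Among PGRN KO libraries that sum was highest in replicate 6 and lowest in replicate 5. The share of all genes with this order of libraries was not computed, so the order is not shown to be particular to these genes.

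Among the immunoproteasome subunits, Psmb9 (ENSMUSG00000096727, chromosome 17, 34181988 to 34187764 on GRCm38, minus strand) was lowest in level. It was at 6.60, 7.26 and 6.12 FPKM in WT and at 17.2, 13.9 and 25.6 FPKM in PGRN KO, with libraries here and below in the order of their replicate numbers. Every PGRN KO library was above every WT library, with the widest gap of the 10 genes relative to level. The log2 fold change was 1.34 ± 0.21 (SE; limma adjusted p = 0.00633), and Psmb9 passed the threshold under all 19 alternatives, with adjusted p from 0.00013 to 0.036.

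Psmb8 (ENSMUSG00000024338, chromosome 17, 34197721 to 34201454, plus strand), which carries the chymotrypsin-like activity of the immunoproteasome, was at 27.2, 29.95 and 27.8 FPKM in WT and at 51.2, 40.7 and 89.1 FPKM in PGRN KO. The groups did not overlap, and replicate 6 was far above the other PGRN KO libraries. Psmb8 differed by 0.99 ± 0.26 on the log2 scale (limma adjusted p = 0.0357), and 0.67 without replicate 6 (adjusted p = 0.00444).

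Psmb10 (ENSMUSG00000031897, chromosome 8, 105935735 to 105938444, minus strand) is the one immunoproteasome subunit encoded outside the MHC. It was at 33.1, 35.8 and 30.7 FPKM in WT and at 57.5, 45.7 and 100.6 FPKM in PGRN KO, again with no overlap and with replicate 6 highest. Psmb10 differed by 0.93 ± 0.27 on the log2 scale (limma adjusted p = 0.0442), and 0.61 without replicate 6 (adjusted p = 0.00775), so the size of the difference changed by over 1.5 times with that library. Psmb8 and Psmb10 lost the call when any WT library or PGRN KO replicate 4 was left out, with adjusted p from 0.0634 to 0.13.

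The constitutive subunits that these 3 displace were measured in the same libraries. Psmb5 was at 90.8, 100.4 and 98.0 FPKM in WT and at 110, 106 and 172 FPKM in PGRN KO. Psmb6 was at 141, 145 and 135 FPKM in WT and at 138, 137 and 221 FPKM in PGRN KO. Psmb7 was at 15.8, 17.8 and 15.3 FPKM in WT and at 15.1, 14.7 and 18.8 FPKM in PGRN KO. For each of them replicate 6 was the highest PGRN KO library, and none of the 3 passed the test (log2 fold changes 0.38, 0.20 and -0.02; limma adjusted p = 0.173, 0.478 and 0.936). That test used all 6 libraries. Psmb5 did not overlap between groups, and it passed under 3 of 19 alternatives (lowest limma adjusted p = 0.0456). Without replicate 6 the value of Psmb5 was 0.16, and with the GC and length correction it was 0.20. The directions of Psmb6 and Psmb7 changed with the settings. Of the words of 31 bases in the Psmb5 transcripts, 71.7% occur also in other genes, mainly the pseudogenes Gm3375 and Psmb5-ps, so its level depends on how such fragments were assigned. Of its words of 150 bases, 5.91% do.

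A ratio within a library does not depend on how libraries were scaled to each other. A shift related to gene length, as in replicate 6, is not removed by it where the genes differ in length. Psmb9 amounted to 4.69%, 5.00% and 4.54% of Psmb6 in WT and to 12.4%, 10.2% and 11.6% in PGRN KO. The ratio was therefore higher in every PGRN KO library, and replicate 6, which led for the single genes, fell between the other PGRN KO libraries. Psmb8 amounted to 29.9%, 29.8% and 28.4% of Psmb5 in WT and to 46.6%, 38.4% and 51.9% in PGRN KO. Psmb10 amounted to 209%, 201% and 200.01% of Psmb7 in WT and to 380.4%, 310.4% and 536% in PGRN KO. Again the groups did not overlap in any of the 3 ratios. On the log2(FPKM + 1) scale the ratios differed by 1.14 for Psmb9, 0.60 for Psmb8 and 0.95 for Psmb10, and without replicate 6 by 1.13, 0.51 and 0.73. With the GC and length correction they differed by 1.21, 0.72 and 0.77. With 3 libraries against 3, an exact two-sided permutation test cannot give a p under 0.1, and each ratio had p = 0.1, also after Benjamini-Hochberg adjustment over the 4 ratios computed.

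**Figure D2:**
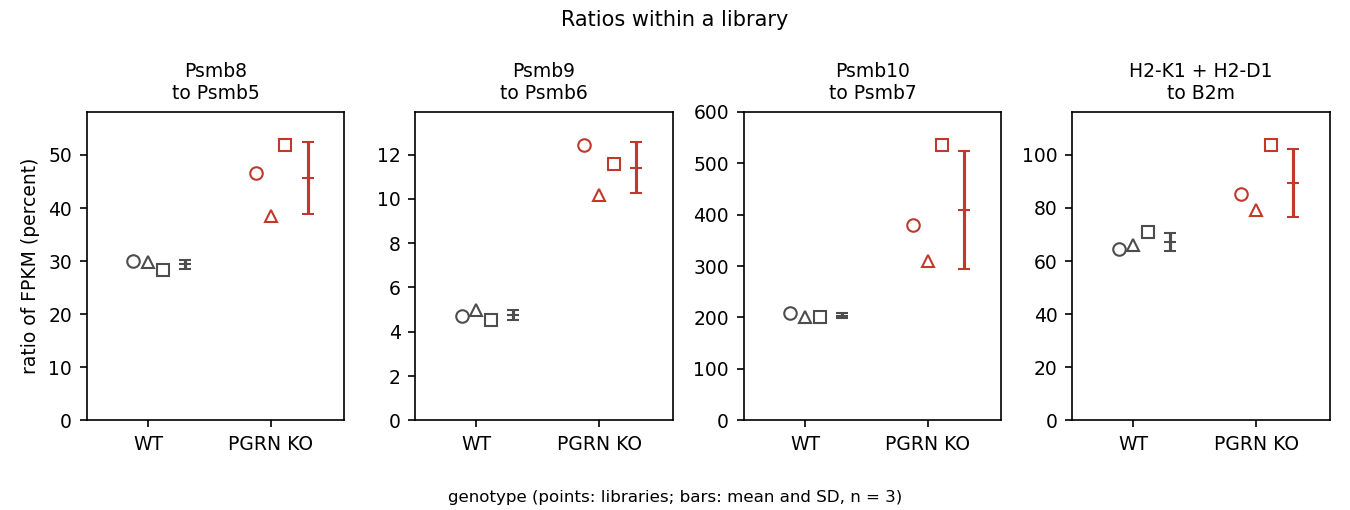
Ratio of FPKM within each library, in percent on axes from 0, for each immunoproteasome subunit to its constitutive counterpart and for H2-K1 plus H2-D1 to B2m; points are libraries (circle, triangle and square for replicates 1, 2 and 3 of WT and 4, 5 and 6 of PGRN KO) and bars mean ± SD (n = 3). All 4 ratios are higher in each PGRN KO library than in any WT library, for example 10.2% to 12.4% against 4.54% to 5.00% for Psmb9 to Psmb6.

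The transporter genes rose together. Tap2 (ENSMUSG00000024339, chromosome 17, 34203527 to 34216321, plus strand) was at 9.90, 11.4 and 9.92 FPKM in WT and at 21.4, 17.6 and 29.9 FPKM in PGRN KO. The lowest PGRN KO library was well above the highest WT library. The log2 fold change was 1.04 ± 0.18 (limma adjusted p = 0.00978), and Tap2, like Psmb9, passed the threshold under all 19 alternatives, with adjusted p from 0.000285 to 0.0489.

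Tap1 (ENSMUSG00000037321, chromosome 17, 34187553 to 34197225, plus strand), the other half-transporter, was at 67.7, 78.6 and 62.0 FPKM in WT and at 116, 93.4 and 136 FPKM in PGRN KO. The groups did not overlap. The log2 fold change was 0.71 ± 0.16 (limma adjusted p = 0.0206), and the adjusted p was 0.0854, 0.0797 and 0.0584 when WT replicate 1, WT replicate 3 or PGRN KO replicate 4 was left out.

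Tapbp (ENSMUSG00000024308, chromosome 17, 33915899 to 33929288, plus strand) was at 224, 249 and 212 FPKM in WT and at 371, 311 and 441 FPKM in PGRN KO. The groups were again apart. Tapbp differed by 0.70 ± 0.15 on the log2 scale (limma adjusted p = 0.017), and the adjusted p was 0.0781, 0.0701 and 0.0508 without the same 3 libraries in turn.

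Several of these genes share exonic bases with a neighbour. The first exons of Tap1 and Psmb9 lie on opposite strands of one divergent promoter region and overlap by 212 bases in GENCODE vM21, 5.79% of the exonic bases of Psmb9. Tapbp overlaps the antisense gene Gm19412 over 24.9% of its exonic bases, Tap2 overlaps Gm15821 over 14.1%, and Psmb8 overlaps Gm20496 over 14.7%. No source used here says if strand was used in counting, so reads of such partners cannot be told apart. Gm19412 was listed at 0 in all libraries, and Gm15821 and Gm20496 were at 0.0494 to 0.919 FPKM. Tap1, at 62.0 to 136 FPKM, was well above Psmb9, at 6.12 to 25.6 FPKM. The part of Tap1 reads in the Psmb9 values over the shared bases was not tested. On the same strand, Tapbp shares 149 exonic bases, 4.11% of its own, with Zbtb22, which was at 8.14 to 9.90 FPKM.

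The heavy chain genes were more abundant than the processing genes and differed less. H2-K1 (ENSMUSG00000061232, chromosome 17, 33996017 to 34000333, minus strand) was at 981, 1060 and 995 FPKM in WT and at 1301, 1159 and 1823 FPKM in PGRN KO. H2-D1 (ENSMUSG00000073411, chromosome 17, 35262730 to 35267499, plus strand) was at 1425, 1519 and 1437 FPKM in WT and at 1836, 1703 and 2434 FPKM in PGRN KO. For both, all PGRN KO libraries were above all WT libraries and replicate 6 was far above the other PGRN KO libraries. The log2 fold changes of 0.47 ± 0.18 and 0.43 ± 0.16 did not pass the threshold (limma adjusted p = 0.0971 and 0.0866). Without replicate 6 the changes were smaller, 0.28 for each, and passed it (adjusted p = 0.0259 and 0.018), as they did once libraries were corrected for GC content and gene length (adjusted p = 0.0237 and 0.0137) and on a TPM scale. H2-K1 and H2-D1 are close in sequence. Of the words of 31 bases, 22.8% of H2-K1 and 26.9% of H2-D1 occur also in other genes, mainly in each other and in genes of the H2-Q family, whereas of words of 150 bases, the read length, the shares were 0% and 1.35%.

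B2m (ENSMUSG00000060802, chromosome 2, 122147686 to 122153083, plus strand), the light chain, was at 3732, 3909 and 3425 FPKM in WT and at 3676, 3618 and 4099 FPKM in PGRN KO. The groups overlapped, and the log2 fold change was 0.04 ± 0.12 (limma adjusted p = 0.825), with a 95% interval from -0.25 to 0.33. The direction of this small difference turned when replicate 6 was left out, to -0.014. The summed level of H2-K1 and H2-D1 amounted to 64.5%, 65.9% and 71.0% of B2m in WT and to 85.3%, 79.1% and 104% in PGRN KO. This ratio, computed after the values of its genes were seen, did not overlap between groups. It differed by 0.41 on the log2 scale (exact permutation p = 0.1, the smallest possible with 3 libraries against 3), and by 0.29 without replicate 6.

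Promoter sequences of H2-K1 and B2m are shown because their products pair in 1 molecule. RefSeq windows on GRCm38.p6, 250 bases before to 50 after a gene's start, were found for 8 of the 10 genes, H2-K1 with a second window, and not for Tap2 or Nlrc5. The H2-K1 stretch is chr17:34000348-34000597 (minus strand) and the B2m stretch is chr2:122147437-122147685 (plus strand), and both lie upstream of the annotated exons of their genes. Capitals mark matches, on either strand, to the letters GAAANNGAAA and AGTTTCNNTT (forms of the interferon response element), TTCNNNGAA (a palindrome bound by Stat family dimers), CCAAT (the Y box), TGACG (part of the X box, bound by the CREB family) and the NF-kB consensus.
H2-K1: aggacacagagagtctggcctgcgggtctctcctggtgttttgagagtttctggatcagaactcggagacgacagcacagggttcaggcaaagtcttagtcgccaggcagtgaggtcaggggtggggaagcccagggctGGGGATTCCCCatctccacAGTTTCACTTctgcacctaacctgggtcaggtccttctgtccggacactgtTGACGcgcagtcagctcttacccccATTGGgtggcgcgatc
B2m: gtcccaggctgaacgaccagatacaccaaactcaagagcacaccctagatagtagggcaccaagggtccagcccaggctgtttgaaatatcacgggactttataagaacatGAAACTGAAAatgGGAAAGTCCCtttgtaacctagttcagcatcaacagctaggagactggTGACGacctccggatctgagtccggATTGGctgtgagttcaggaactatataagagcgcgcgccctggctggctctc

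Both stretches hold, in the order they are read toward the gene, an interferon-type and an NF-kB match close together, then TGACG, then CCAAT in reverse (ATTGG). In H2-K1 the NF-kB match comes first, from -111 to -101 relative to the start, where a pair of overlapping matches is offset by 1 base, and AGTTTCACTT follows from -92 to -83. In B2m the interferon-type match GAAACTGAAA, from -139 to -130, comes before the NF-kB match from -126 to -117. H2-D1 has the same pair of sites in the same order as H2-K1. The 30 bases that begin at the NF-kB match are chr17:34000429-34000458 (minus strand) in H2-K1 and chr17:35262923-35262952 (plus strand, within a UTR of a longer annotated transcript) in H2-D1.
H2-K1 site: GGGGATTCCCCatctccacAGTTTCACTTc
H2-D1 site: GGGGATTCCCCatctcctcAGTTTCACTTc

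Compared without gaps at the best offset, the windows of H2-K1 and H2-D1 had 73.3% of 240 bases in common. Tap1 and Psmb9 are read in opposite directions from starts with 225 bases between them, and their windows share 275 bases, so each match in one is a match in the other. The TGACG there is shown within the 30 bases of chr17:34187457-34187486, which lie in a UTR of an annotated Psmb9 transcript, on the plus strand.
Tap1 and Psmb9 site: gcccagagacaggTGACGacagagggtcct

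Of the 8 genes with a window, CCAAT was found in 6 and TGACG in 5, where 37.4% and 20.8% of the 32851 promoters in the table hold them. These counts are not independent: Tap1 and Psmb9 hold the same bases for both, and H2-K1 and H2-D1 are close in sequence. The NF-kB consensus was found in B2m, H2-D1 and H2-K1 (4.51% of all promoters), AGTTTCNNTT in H2-D1 and H2-K1 (1.72%), GAAANNGAAA in B2m (3.44%) and TTCNNNGAA in Psmb8 (8.30%). A match is a description of the letters in these windows and no evidence of binding.

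Nlrc5 (ENSMUSG00000074151, chromosome 8, 94434356 to 94527272, plus strand), the longest of the 10 gene models, behaved differently between libraries. It was at 25.2, 26.0 and 21.1 FPKM in WT and at 40.9, 31.9 and 24.2 FPKM in PGRN KO. Both replicate 4 and replicate 5 were above all WT libraries, but replicate 6, the highest PGRN KO library for the other 9 genes, was within the WT range. The log2 fold change was 0.38 ± 0.19 (limma adjusted p = 0.175). It was 0.57 without replicate 6 (adjusted p = 0.0168) and 0.49 with libraries corrected for GC content and gene length (adjusted p = 0.0355).

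**Figure D3:**
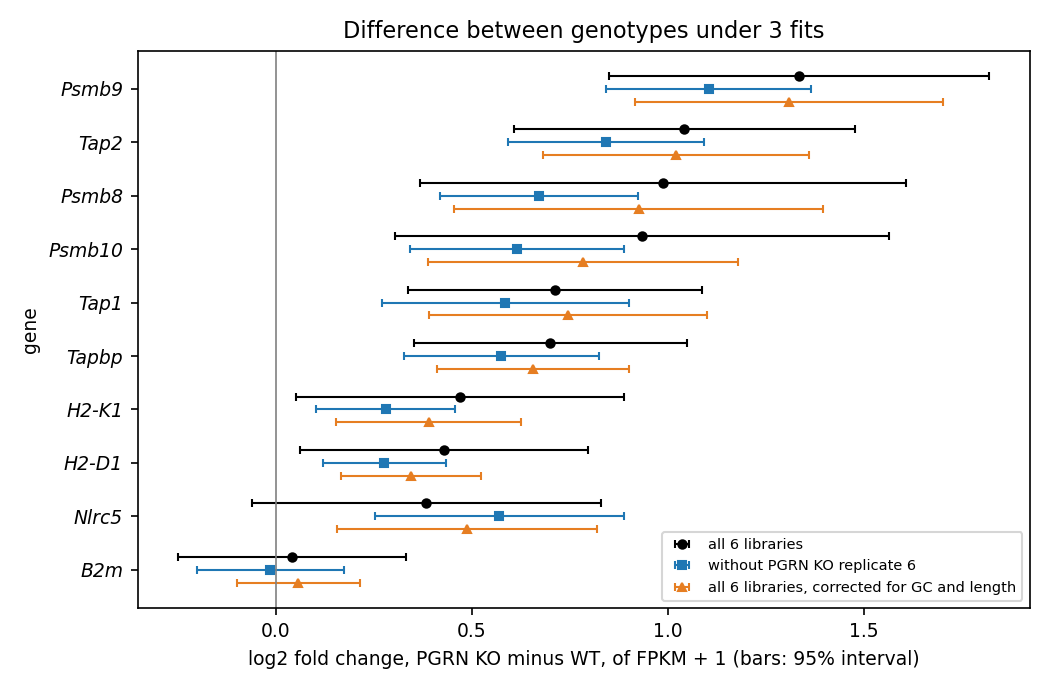
Log2 fold change of FPKM + 1 (PGRN KO minus WT) of the 10 genes with its 95% interval under 3 limma fits: all 6 libraries, without PGRN KO replicate 6, and all libraries corrected for GC content and length. Psmb9 and Tap2 lead in each fit, the intervals of 9 genes lie above 0 in both of the latter fits, and that of B2m spans 0 in all 3.

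Leaving out replicate 6 thus gave smaller differences for 9 of the 10 genes, and a narrower interval for each of the 10. Without it 9 genes, all but B2m, were called higher, where 16.2% of all genes tested were. The same 9 were called with the GC and length correction, where 15.1% of all genes were. Leaving out WT replicate 1, WT replicate 3 or PGRN KO replicate 4 left 2 called genes, Tap2 and Psmb9, where 3.73%, 4.47% and 6.87% of all genes tested were called higher. Each gene was correlated over the 6 libraries with the mean of the 10 genes' z scores, of which each is itself a part. The Pearson correlation was 0.963 to 0.995 for 8 genes, 0.65 for B2m and 0.42 for Nlrc5. The share of all genes tested with such correlations was not computed, so likeness is not shown to be particular to these genes. Outside these genes and the pathway lists, the 5 genes whose profile was most like that mean over the 6 libraries were Tnip2, AA467197, Tcirg1, Lgals3bp and Nmi (Pearson r = 0.997 to 0.999). Their profiles share the libraries, and so the order within each group, with the genes described.

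The pathway was then followed through 62 other genes in 6 lists, of which 48 were tested. Of these, 10 were higher and 6 lower in PGRN KO, where 10.4% of all genes tested were higher and 13.8% lower. The lower count is thus near the share over all genes. The median log2 fold change of the 48 was 0.13. Without replicate 6 the counts were 17 and 10, where 1438 and 2230 of all 8882 genes tested were called. With the GC and length correction they were 17 and 8, where 1343 and 1597 of the 8882 were. Of the 10 higher genes, 7 were among the 12 tested genes of the list of other class I heavy chains and class I-like genes, which had 0 lower and a median of 0.64.

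H2-T22, a non-classical class I molecule recognised by some gamma delta T cells, was at 27.8, 33.1 and 28.4 FPKM in WT and at 72.8, 57.8 and 100.6 FPKM in PGRN KO. The groups were far apart (log2 fold change 1.31 ± 0.20, limma adjusted p = 0.00594). H2-T10, its close homologue, rose by 0.97 ± 0.15 (adjusted p = 0.00654). Of the words of 31 bases, 67.4% in H2-T22 and 64.2% in H2-T10 occur also in other genes, mainly in each other, so the share of each is uncertain. Of words of 150 bases the shares were 22.3% and 20.9%, mainly with A930015D03Rik and BC023719.

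Of the Qa-2 genes, which encode non-classical class I molecules, H2-Q6 was at 41.1, 48.8 and 38.5 FPKM in WT and at 83.1, 70.8 and 102 FPKM in PGRN KO. It differed by 0.97 ± 0.16 (limma adjusted p = 0.00731) and H2-Q7 by 0.91 ± 0.19 (adjusted p = 0.0158). H2-Q6 and H2-Q7 share 51.8% and 39.2% of such words with other genes, and 5.99% and 5.90% of words of 150 bases. They too are therefore not fully separate measurements. H2-M3 presents formylated peptides of bacteria and mitochondria. It was at 19.1, 19.98 and 19.9 FPKM in WT and at 31.8, 25.2 and 40.0 FPKM in PGRN KO (0.66 ± 0.16, limma adjusted p = 0.0264). Of its words of 31 bases, 4.62% are shared. H2-T24 rose by 0.49 ± 0.11 (adjusted p = 0.0235), and so did H2-K2, recorded in the table as a pseudogene, by 1.13 ± 0.16 (adjusted p = 0.00489). Left-out WT replicates 1, 2 and 3 or PGRN KO replicate 4 each cost H2-M3 and H2-T24 their calls (adjusted p = 0.0562 to 0.101), and H2-Q7 lost its call without WT replicate 1 or 3 (0.0681 and 0.0657). H2-Q4 and H2-T23, the Qa-1 gene, had no overlap between groups but did not pass (0.61 and 0.38; limma adjusted p = 0.0573 and 0.103). Both passed without replicate 6 (0.43 and 0.23; adjusted p = 0.0473 and 0.0352) and with the GC and length correction (adjusted p = 0.0244 and 0.0301). Among class I-like genes H2-M2, Cd1d1 and Fcgrt did not pass with all 6 libraries, Fcgrt passed with the GC and length correction (adjusted p = 0.0341), and 9 of the 21 listed genes in the table were below the filter.

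Of 8 peptide loading and trimming genes, Tapbpl rose, Pdia3 fell and 6 did not pass the test. Such counts are near the 10.4% higher and 13.8% lower over all genes tested. Tapbpl, the tapasin-related peptide editor, was at 8.21, 8.57 and 8.88 FPKM in WT and at 16.2, 15.0 and 18.6 FPKM in PGRN KO. The libraries of each genotype were close together, and Tapbpl differed by 0.88 ± 0.10 (limma adjusted p = 0.00269). Pdia3, the thiol oxidoreductase of the loading complex, was at 70.6, 73.8 and 65.9 FPKM in WT and at 48.3, 49.6 and 58.9 FPKM in PGRN KO, lower in each PGRN KO library (-0.42 ± 0.11, adjusted p = 0.0314). This call was lost when any library but PGRN KO replicate 6 was left out (adjusted p = 0.0746 to 0.126). The chaperone Calr had 171, 180 and 168 FPKM in WT and 123, 121 and 158 FPKM in PGRN KO. It did not pass the test over all 6 libraries (-0.38 ± 0.13, adjusted p = 0.0700), and without replicate 6 it did (-0.50, adjusted p = 0.00141). Erap1, which trims peptides in the endoplasmic reticulum, also passed only without that library or in some other settings (0.41 ± 0.14 with all 6, adjusted p = 0.0708).

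None of the 5 genes of the proteasome activator PA28 and of assembly passed the test with all 6 libraries. Psme1 was at 51.1, 53.3 and 48.0 FPKM in WT and at 57.1, 49.1 and 81.8 FPKM in PGRN KO (0.26 ± 0.18, limma adjusted p = 0.32), and Psme2 at 52.8, 48.7 and 55.0 FPKM in WT and at 85.5, 52.3 and 117 FPKM in PGRN KO (0.62 ± 0.27, adjusted p = 0.133). In both, replicate 5 lay within the WT range, and without replicate 6 the differences were 0.059 and 0.35. Psme2b shares 78.4% of its words of 31 bases with other genes, mainly Psme2, and 38.4% of its words of 150 bases. Its difference was 0.91 ± 0.29 (limma adjusted p = 0.059). It was 0.58 and passed without replicate 6 (adjusted p = 0.0243), and it passed with the GC and length correction (adjusted p = 0.0219). Pomp, the assembly chaperone, also passed without replicate 6 (0.24, adjusted p = 0.0359, against 0.48 and 0.129 with it).

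**Figure D4:**
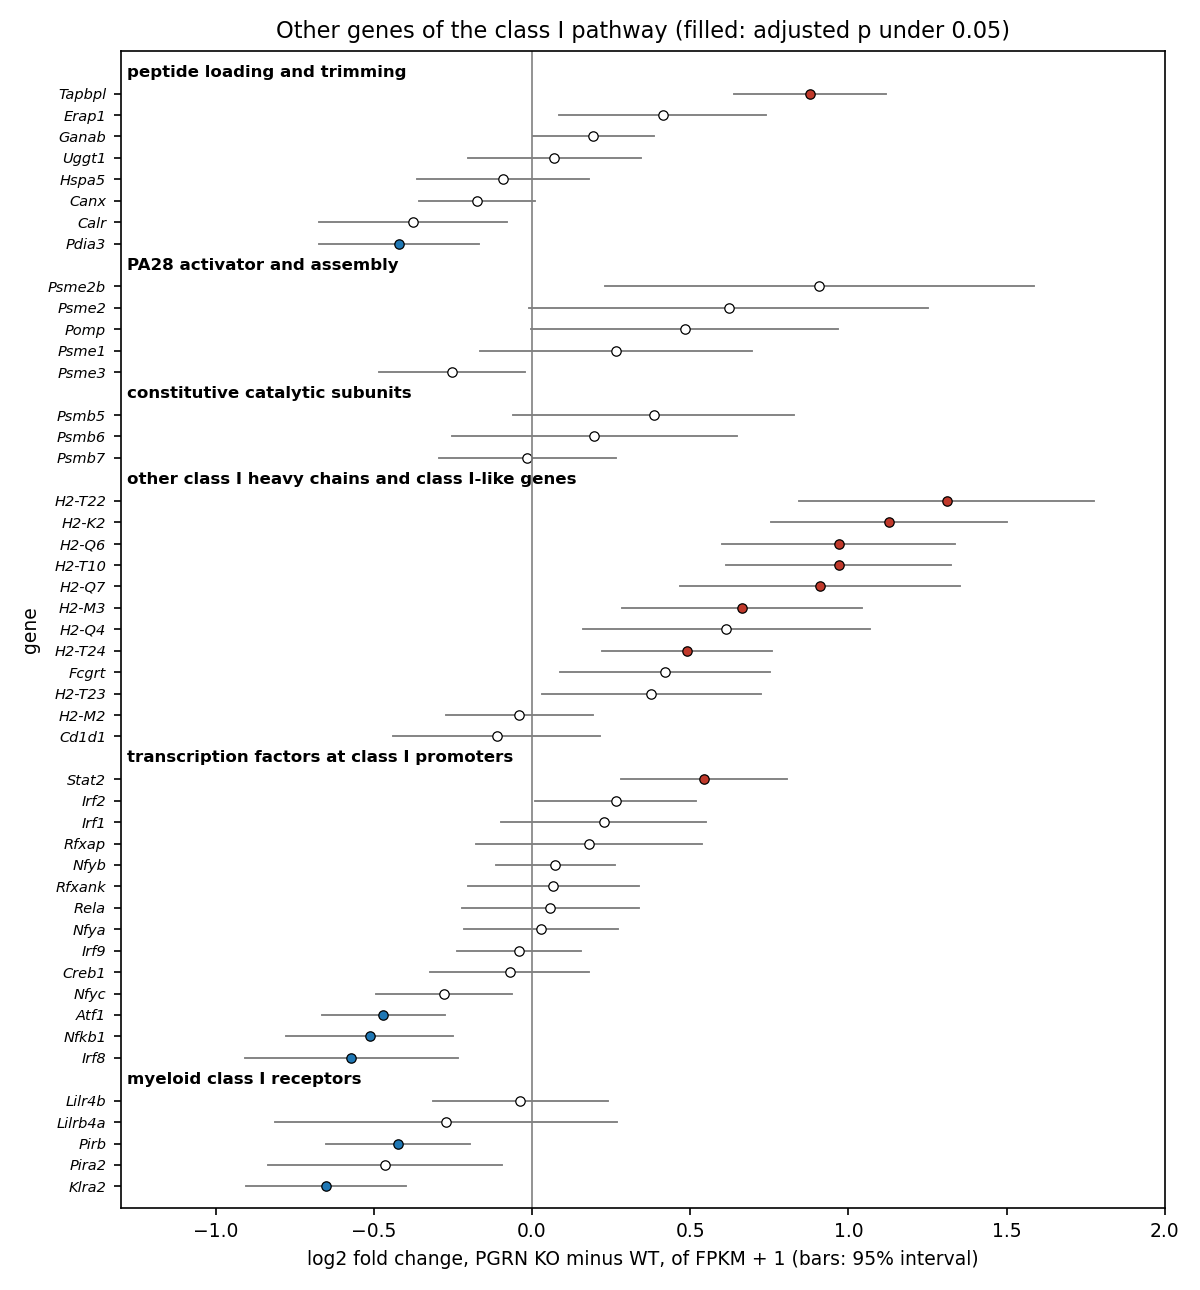
Log2 fold change of FPKM + 1 (PGRN KO minus WT) of 47 tested genes of the 6 pathway lists, with 95% intervals; filled points passed the limma test (adjusted p under 0.05), red higher and blue lower in PGRN KO. Heavy chains hold 7 of the 9 filled red points, and the transcription factors and receptors hold 5 of the 6 blue ones.

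Of 15 tested transcription factors with known roles at class I promoters, 2 rose and 3 fell. Over all genes tested 10.4% were higher and 13.8% lower, so these counts are not far from those shares. Stat2, a signal transducer of type I interferon, was at 44.5, 46.2 and 41.1 FPKM in WT and at 72.3, 64.9 and 57.1 FPKM in PGRN KO, a difference of 0.54 ± 0.11 (limma adjusted p = 0.0157). Irf1, an interferon-induced activator of class I genes, was at 81.5, 96.5 and 81.1 FPKM in WT and at 109, 84.5 and 112 FPKM in PGRN KO, with overlap, and did not pass (0.23 ± 0.14, adjusted p = 0.265).

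The 3 that fell were Irf8, which directs development of monocytes and dendritic cells, Nfkb1, the precursor of the NF-kB subunit p50, and Atf1 of the CREB family. Irf8 was at 52.7, 53.9 and 57.5 FPKM in WT and at 41.5, 29.3 and 39.9 FPKM in PGRN KO (-0.57 ± 0.14, limma adjusted p = 0.0293). Nfkb1 was at 86.0, 90.4 and 79.1 FPKM in WT and at 65.6, 60.6 and 52.4 FPKM in PGRN KO (-0.51 ± 0.11, adjusted p = 0.0193), and its value was -0.33 with the GC and length correction. Atf1 differed by -0.47 ± 0.08 (adjusted p = 0.00952). In all 3 genes each PGRN KO library was below each WT library. The genes were called lower from the same values, so this order adds no support, and its share over all genes was not computed. Without WT replicates 1, 2 and 3 in turn the calls of Stat2, Irf8 and Nfkb1 were lost (limma adjusted p = 0.0529 to 0.102), and that of Atf1 was lost without WT replicate 1 or 3 (0.0573 and 0.0524). On a TPM scale the calls of Nfkb1 and Atf1 were lost as well. Rfx5, which binds the X box, was below the filter, at 0.455 to 0.605 FPKM in WT and at 1.05 to 1.61 FPKM in PGRN KO. The other subunits of that complex, Rfxap and Rfxank, and Nfya, Nfyb and Nfyc, which bind CCAAT, did not pass with all 6 libraries, and Nfyc passed without replicate 6 and with the GC and length correction.

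In the list of myeloid receptors from families that include class I receptors, 2 of 5 tested genes fell and 0 rose. Binding of class I by each of them was not tested. Over all genes tested, 13.8% were lower and 10.4% higher. Pirb, an inhibitory receptor for class I, was at 24.9, 24.2 and 24.7 FPKM in WT and at 16.8, 17.3 and 20.3 FPKM in PGRN KO (-0.42 ± 0.10, limma adjusted p = 0.0218), and this call was lost when any library but PGRN KO replicate 6 was left out (adjusted p = 0.0616 to 0.104). Pirb shares 44.1% of its words of 31 bases, and 13.4% of those of 150 bases, with other genes, mainly its relatives. Klra2, of the Ly49 family, fell by 0.65 on the log2 scale (SE 0.11, adjusted p = 0.00782).

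Of the 10 genes, 7 lie within chromosome 17 from 33915899 to 35267499. Among the 52 other tested genes of that interval, pathway genes aside, 10 were higher, which is 19.2% against 10.4% of all genes tested. Lower were 8, where 13.8% of all genes tested were, and the median log2 fold change was 0.06.

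Markers of other cells moved with genotype at low level. The summed level of 5 B cell markers was 1.501 to 2.49 FPKM in WT and 6.62 to 8.92 FPKM in PGRN KO, with Cd79a at 0.697 to 1.35 and 3.25 to 4.53 FPKM. That of 5 mast cell markers was 2.01 to 2.76 FPKM in WT and 8.97 to 13.7 FPKM in PGRN KO, with Ms4a2 listed at 0 throughout, and that of 5 T cell markers was 0.961 to 1.36 and 2.11 to 2.56 FPKM. NK cell markers summed to 0.389 to 0.409 FPKM in WT and to 0.672 to 1.05 FPKM in PGRN KO. Most of that sum was Gzma, with means of 0.280 and 0.671 FPKM. The mean of Eomes was also higher in PGRN KO, but those of Ncr1 (0.0671 and 0.0604 FPKM) and Klrb1c (0.0317 and 0.00651 FPKM) were lower. The 6 dendritic cell markers, of which Cd209a was listed at 0 throughout, summed to 1.84 to 2.27 and 1.10 to 1.46 FPKM. Among them Xcr1 and Flt3 were lower in PGRN KO, whereas the means of Zbtb46, Clec9a and Siglech were higher. Of 7 macrophage markers Csf1r was lower, Mertk was higher and 5 did not pass, and of 3 monocyte markers Ly6c2 fell from 11.6 to 12.7 FPKM to 3.01 to 3.70 FPKM, Plac8 rose from 2.51 to 2.93 FPKM to 5.33 to 8.87 FPKM, and Ccr2 was at 0.258 to 0.401 FPKM, below the filter. The 3 summed to 14.6 to 15.9 FPKM in WT and to 8.75 to 12.8 FPKM in PGRN KO. Markers of mesothelial cells and fibroblasts, 5 in number, summed to 0.236 to 0.472 FPKM in WT and to 0.510 to 1.03 FPKM in PGRN KO. Most of that sum was Col1a1, with means of 0.227 and 0.548 FPKM. The means of Pdgfra and Wt1 were also higher in PGRN KO, but those of Msln (0.103 and 0.0705 FPKM) and Upk3b (0.0169 and 0.00546 FPKM) were lower. The part of these cells in the results above was not tested.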

How the data were processed

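Polyadenylated RNA was sequenced as 150-base pairs. The submitters' processing notes name HISAT2 2.0.5, featureCounts 1.5.0-p3, DESeq2 1.20.0 and GRCm38, whereas the paper's methods name HTSeq; use of strand is not stated. The authors deposited FPKM per gene, with the gene model length; in these values 100.0% were whole multiples of 1 fragment (tolerance 0.001), so depth is known, and counting error only is covered by it. log2(FPKM + 1), which understates changes of low genes, was compared with limma 3.58.1 in R 4.3.3 (trend, two-sided, Benjamini-Hochberg) for 8882 genes (mean FPKM 1 or more), with no covariate. The fit was tested on simulated data with 1 dispersion for all genes and no shift related to gene length. That test therefore does not cover a library such as PGRN KO replicate 6. Ratios had exact two-sided permutation tests. Alternatives changed the pseudocount, filter, scaling, model, gene set, GC and length correction (loess, span 0.5) or samples. Named genes were the 10 genes, pathway genes that passed or on which a result turned, and the 5 most alike. Members, lists and motifs were chosen with earlier results or the sequences of these data known. H2-K1, Tapbp and Psmb9 have other bounds in GENCODE vM21 than in the table. H2-T9 and H2-D3 were not analysed here, and 1 pathway gene, counted in totals, is not reported by name.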

Additional observations from a re-analysis of the deposited data

How the results depend on the processing

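No paired analysis was possible because no replicate number occurs in both genotypes. Of the 10 genes, 6 were called higher; the count was 2 with no filter on low values, where 22912 genes were tested, and 2 to 9 when 1 library was left out. It was 6 to 9 under the other alternatives, and 0 genes were called lower under any. The median log2 fold change of the 10 genes lay between 0.58 and 0.84 throughout. The difference in the ratio of Psmb9 to Psmb6 was 1.25 and 1.26 with pseudocounts of 0.1 and 0.01, and the differences of the 3 other ratios kept their direction and stayed within 1 SD under each alternative run. Small differences turned direction: B2m to -0.018 with sample quality weights and between -0.014 and 0.085 with 1 library left out; Psmb6 to -0.013 with weights, to -0.021 with the GC and length correction and PGRN KO replicate 6 left out, and between -0.030 and 0.31 with 1 library left out; Psmb7 to 0.036 on a TPM scale, 0.033 under quantile normalization, 0.079 when library size was the sum of fragments and 0.012 with the GC and length correction, and between -0.12 and 0.045 with 1 library left out. The cause was not tested. Over 36 named genes and all alternatives, 552 of 682 values kept direction and side of the threshold, 57 lost the call, 60 gained it and 13 turned direction. Over all genes 921 were higher and 1230 lower; the split was 922 and 608 on a TPM scale, 1179 and 695 when library size was the sum of fragments, 1438 and 2230 without PGRN KO replicate 6, and 331 and 382 without WT replicate 1. With 3 libraries per group, 1 of which differs in its relation to gene length, sizes of differences are less certain than directions.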
